A study of Mus musculus with 9 samples.

Results

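Toll-like receptors (TLR) are membrane sensors of microbial lipids, proteins and nucleic acids, and 10 genes of this system were followed here. The genes were listed by name: the receptors Tlr1, Tlr2, Tlr3, Tlr4, Tlr6, Tlr7, Tlr8 and Tlr9, the transport protein Unc93b1 and the adaptor Myd88. All 10 had a probe set annotated with 1 gene symbol, among 18193 such genes in all. The cells on the Affymetrix arrays were of 3 types: CDC, the conventional dendritic cells; NK, the natural killer cells; and IKDC, killer dendritic cells named for producing interferon. All cells were sorted fresh, without stimulation, from spleen or lymph node (LN) of naive BALB/c mice aged 6 to 8 weeks. The 9 arrays held 2 of each cell type from spleen and 1 of each from LN. The labels give neither the sorting gates nor the animals behind an array, so p-values measure only the spread between these samples.

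CDC present antigen to T cells, NK kill infected or transformed cells, and IKDC were named for combining features of both. TLR1, TLR2, TLR4 and TLR6 sit mainly at the cell surface and bind lipopeptides or lipopolysaccharide. TLR3, TLR7, TLR8 and TLR9 read nucleic acids inside endosomes, which they reach with the help of the endoplasmic reticulum protein UNC93B1. MYD88 carries the signal of every receptor listed except TLR3, and also that of the interleukin 1 and interleukin 18 receptors. Dendritic cell types are known to carry different sets of these receptors, and plasmacytoid dendritic cells are known for TLR7 and TLR9.

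Levels are log2 normalized intensities. A difference is on the log2 scale, with its standard error (SE) and an adjusted p from limma, which was called below 0.05. A level under 5.31, the 40th percentile of gene means, is near background. Where a group mean lay under that level, the fold was computed against 5.31 and is a lower bound, written as at least. Of the 10 genes, 8 were above it on average and were tested, while Tlr8 and Tlr9 were below it. Levels of different genes cannot be set against each other, because probe sets differ in brightness.

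The arrays were first checked against their labels. Median intensity ranged from 23.4 to 41.3 over the 9 arrays. The mean of 7 CDC markers was 10.49 to 10.98 on CDC arrays, 7.38 to 8.06 on IKDC arrays and 5.67 to 7.08 on NK arrays. The mean of 6 NK markers was 11.83 to 12.46 on NK arrays, 11.35 to 11.88 on IKDC arrays and 5.81 to 6.99 on CDC arrays. Itgax, which encodes CD11c, was at 11.32 on spleen NK array 1 and 7.27 on spleen NK array 2, and on IKDC arrays it was at 10.88 to 11.24. The MHC class II gene H2-Aa was likewise at 10.89 and 6.62 on these spleen NK arrays. LN NK were in between, at 8.19 for Itgax and 9.6 for H2-Aa. Spleen NK array 1 thus carried both genes near the level of IKDC, and results that rest on it are given without it below. Spleen NK array 2 had the highest mean of 5 basophil and mast cell markers, 8.55, where the other 8 arrays were at 4.62 to 6.93. Xist read 6.02 to 6.36 on the spleen arrays numbered 1, against 11.43 to 12.49 on the rest. For the Y-linked Eif2s3y the former read 8.84 to 9.40 and no other array exceeded 4.28. Xist is the RNA of the inactive X chromosome, so these sex markers set spleen arrays 1 apart from all others. The spleen arrays of a cell type therefore came from different mice, and their spread includes this difference. All LN arrays were like spleen arrays 2 in these markers, so LN minus spleen differences mix organ with part of it.

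In spleen, CDC carried 5 of the 8 tested genes at higher levels than IKDC, namely Tlr1, Tlr2, Tlr3, Tlr7 and Unc93b1. The same 5 were higher in CDC than in NK, and none of the 8 was called higher in IKDC or NK. Of all 10916 genes tested, limma called 10.3% between IKDC and CDC (5.60% lower and 4.75% higher in IKDC). Between NK and CDC it called 13.5% (6.98% lower and 6.54% higher in NK). The median difference of the 8 genes was -2.18 for IKDC minus CDC and -2.55 for NK minus CDC, against 0.037 and 0.059 over all genes tested. On all 3 CDC arrays, LN included, Tlr1, Tlr2, Tlr3, Tlr6 and Unc93b1 were above each of the 6 NK and IKDC arrays, as were 11.2% of all genes tested. For Tlr6 this depended on the normalization: LN CDC read 7.36 and LN IKDC 7.34, but their deposited intensities were 161 and 166. The 2 spleen comparisons share the CDC arrays. Tlr7 passed the filter on low levels only through arrays where it was high, so its place in the counts and medians supports nothing. Without spleen CDC 1, CDC 2, NK 1 or NK 2, fewer of the 8 were called against IKDC and against NK. The share called over all genes also fell in each of these fits, so the drop is not particular to the 8. An array outside a comparison enters it only through the shared spread. In sorted populations such as these, fewer cells that carry a transcript and less of it per cell cannot be told apart.

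**Figure D1:**
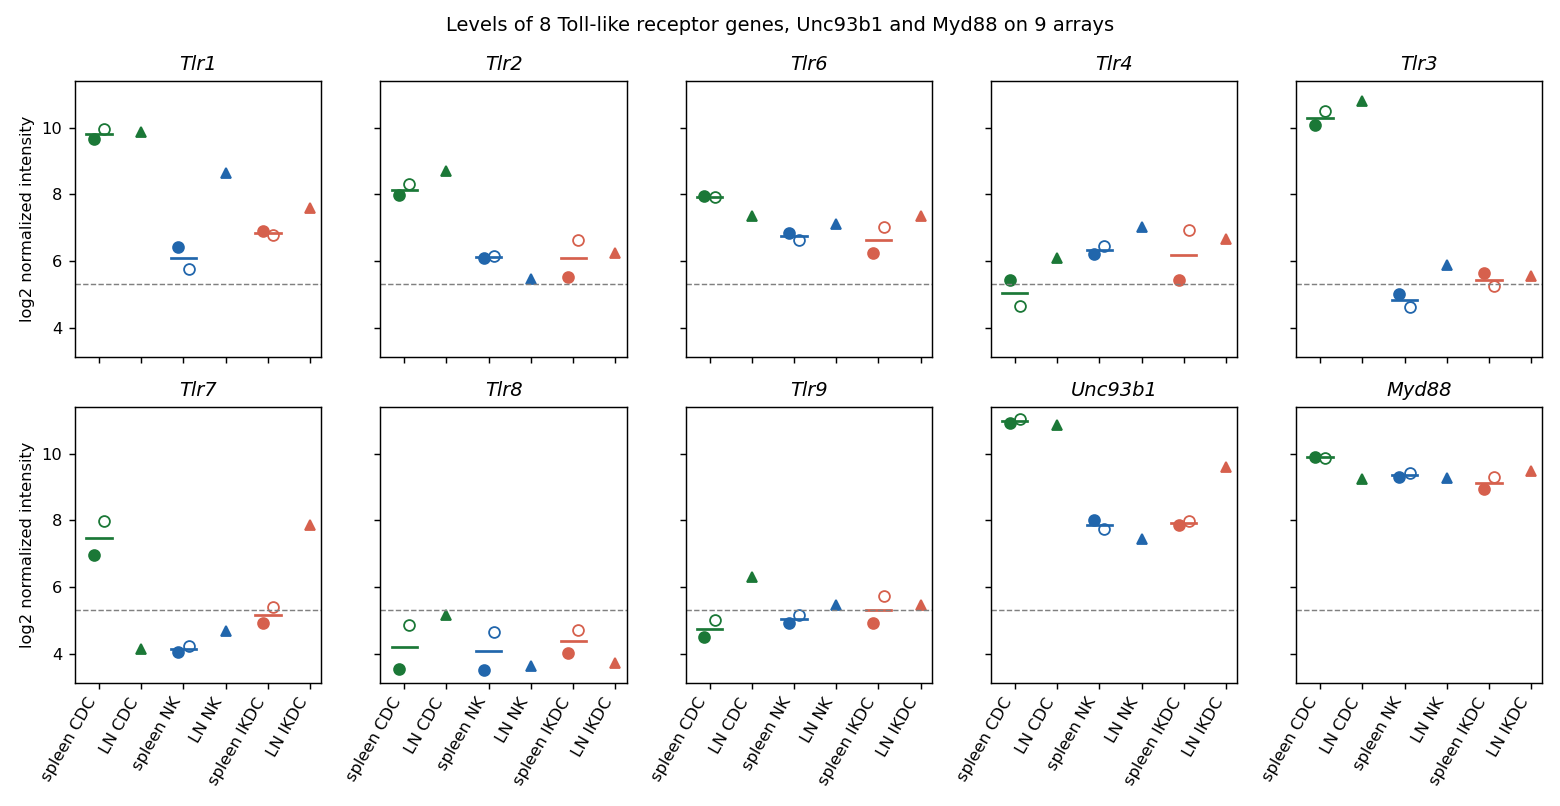
Level of each of the 10 genes (y axis, log2 normalized intensity) by group (x axis). Filled circles are spleen arrays 1, open circles spleen arrays 2 with a bar at their mean, and triangles the single LN arrays; the dashed line marks 5.31. Tlr1, Tlr2, Tlr3 and Unc93b1 stand high in green CDC of both organs, whereas Tlr7 stands high in spleen CDC and LN IKDC.

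Among the surface receptors, Tlr1 showed the widest gap in spleen. TLR1 pairs with TLR2 to bind triacylated lipopeptides of bacteria. Its level was 9.66 and 9.95 on the spleen CDC arrays and 9.88 in LN CDC. Spleen NK were at 6.42 and 5.76, and spleen IKDC at 6.91 and 6.80. No spleen NK or IKDC array came near a CDC array. Tlr1 was 7.73-fold lower in spleen IKDC than in CDC (-2.95 ± 0.31 SE, adjusted p = 0.0029) and 13.1-fold lower in NK (-3.72 ± 0.31, adjusted p = 0.00101). The 2 arrays of the same number gave IKDC minus CDC differences of -2.75 and -3.15.

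LN arrays filled the gap for Tlr1: LN NK were at 8.65 and LN IKDC at 7.58. The LN NK array was over 2-fold above all 5 other NK and IKDC arrays in Tlr1, which was so for 0.376% of all genes tested. From the highest down, the order was CDC of both organs, which do not differ beyond their spread, then LN NK, LN IKDC, spleen IKDC and spleen NK. LN NK minus spleen NK was 2.57 ± 0.38 (adjusted p = 0.248), with 0 of 10916 genes called (0%) in that comparison by limma and 628 at an unadjusted p under 0.05, Tlr1 and Tlr3 among them. The LN NK array also had the highest mean of the 6 T cell markers, 8.44, where the other NK and IKDC arrays were at 6.53 to 7.17, with Cd3e at 8.15 and Cd3g at 9.31. It read 10.82 for Itgae, the integrin chain CD103, where spleen NK were at 6.70 and 6.86, LN CDC at 11.05 and LN IKDC at 9.04. The part of these in the Tlr1 level was not tested.

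Tlr2, the partner of TLR1 and TLR6, was at 7.97 and 8.32 in spleen CDC and 8.70 in LN CDC. The NK and IKDC arrays lay between 5.48 and 6.64, below every CDC array. The gene was 4.16-fold lower in spleen IKDC (-2.06 ± 0.41, adjusted p = 0.0268) and 4.02-fold lower in spleen NK (-2.01 ± 0.41, adjusted p = 0.0238). Both calls were lost without spleen CDC 1, CDC 2, NK 1 or NK 2, fits in which fewer of all genes were called too. NK arrays enter the IKDC minus CDC difference only through the shared spread, so their losses do not tie that call to them. Arrays of spleen IKDC differed, at 5.54 on array 1 and 6.64 on array 2.

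Tlr6, which pairs with TLR2 to bind diacylated lipopeptides, had a smaller gap. It was at 7.95 and 7.92 in spleen CDC, 6.84 and 6.65 in NK, and 6.25 and 7.02 in IKDC. The differences of -1.30 ± 0.33 for IKDC (adjusted p = 0.0597) and -1.19 ± 0.33 for NK (adjusted p = 0.0674) did not pass. The IKDC difference passed without spleen IKDC array 2 (adjusted p = 0.0245), and the NK difference without IKDC array 1 (0.022) or 2 (0.025). LN CDC read 7.36, LN NK 7.12 and LN IKDC 7.34, values that do not differ beyond the spread. Tlr1 and Tlr6 are neighbouring genes on chromosome 5.

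Tlr4, the receptor for lipopolysaccharide, ran the other way in value. Spleen CDC were at 5.43 and 4.66, near background. NK were at 6.21 and 6.46, IKDC at 5.45 and 6.94, while LN CDC were at 6.11, LN NK at 7.04 and LN IKDC at 6.68. The values of spleen IKDC array 1 and CDC array 1 were alike. IKDC minus CDC was 1.15 ± 0.56 (adjusted p = 0.289) and NK minus CDC 1.29 ± 0.56 (adjusted p = 0.209), so neither passed. Without spleen IKDC array 1 the first was 1.89, which then rests on IKDC array 2 alone. Arrays of the same number gave IKDC minus CDC differences of 0.01 and 2.28. A second probe set, 1418163, read 5.16 and 5.53 in spleen CDC and 5.21 and 6.99 in spleen IKDC. The 9 macrophage and monocyte markers averaged 6.56 on spleen IKDC array 1 and 7.91 on array 2, the array that also read higher in Tlr2 and Tlr4. On CDC arrays they averaged 7.92 to 8.83, and on NK arrays 5.36 to 6.97. The part of these markers in the values of Tlr2 and Tlr4 was not tested.

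Tlr3, the endosomal receptor of double-stranded RNA, had the largest differences of the 8 genes. It was at 10.09 and 10.49 in spleen CDC and 10.79 in LN CDC. Every NK and IKDC array was close to background: 5.03 and 4.62 in spleen NK, 5.64 and 5.25 in spleen IKDC, 5.89 in LN NK and 5.55 in LN IKDC. The groups were far apart in both organs. Tlr3 was 28.7-fold lower in spleen IKDC (-4.85 ± 0.32, adjusted p = 0.00129) and at least 31.7-fold lower in spleen NK (-5.47 ± 0.32, adjusted p = 0.00058). A second probe set, 1422781, gave -3.96 ± 0.43 and -4.28 ± 0.43. The calls of Tlr1, Tlr3 and Unc93b1 held in both spleen comparisons when any of the 6 spleen arrays was left out.

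Unc93b1, which escorts the nucleic acid receptors to endosomes, was at 10.90 and 11.02 in spleen CDC and 10.85 in LN CDC. Spleen NK were at 8.01 and 7.73 and spleen IKDC at 7.87 and 7.99. The 4 values overlapped, and all lay above the background level. The gene was 8.16-fold lower in spleen IKDC (-3.03 ± 0.24, adjusted p = 0.00137) and 8.50-fold lower in spleen NK (-3.09 ± 0.24, adjusted p = 0.000897). Both pairs of arrays with the same number gave -3.03 for IKDC minus CDC. LN NK, at 7.45, were like spleen NK, but LN IKDC stood at 9.60.

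Tlr7, the receptor of single-stranded RNA, was at 6.96 and 7.99 in spleen CDC. Spleen NK were at 4.06 and 4.23 and spleen IKDC at 4.93 and 5.42. Only IKDC array 2 among these 4 was above the background level. Tlr7 was at least 4.48-fold lower in spleen IKDC (-2.30 ± 0.46, adjusted p = 0.0269) and at least 4.48-fold lower in spleen NK (-3.33 ± 0.46, adjusted p = 0.00558). The IKDC call was lost without spleen CDC 1 (adjusted p = 0.0533), CDC 2 (0.186), NK 1 (0.0563), NK 2 (0.0556) or IKDC 1 (0.0643), and the NK call without CDC 2 (0.0516). Tlr7 reached the test only through the arrays where it was high, spleen CDC and LN IKDC. It lies next to Tlr8 on the X chromosome. Arrays 1 and 2, which Xist sets apart, gave IKDC minus CDC differences of -2.03 and -2.57.

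Tlr8 and Tlr9 were too low to test. TLR9 binds unmethylated CpG DNA, and TLR8 belongs to the same subfamily as TLR7. Tlr8 lay between 3.52 and 5.16 on the 9 arrays, under the background level on each. Tlr9 lay between 4.50 and 5.72 on 8 arrays and at 6.31 in LN CDC. No cell type stood out in spleen for either gene. LN IKDC read 5.48 for Tlr9 and 3.74 for Tlr8.

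Myd88, the shared adaptor, varied least. It was at 9.90 and 9.87 in spleen CDC, 9.31 and 9.42 in NK, 8.93 and 9.31 in IKDC, and 9.24 to 9.49 on the LN arrays. Spleen CDC were the highest, and the others overlapped. IKDC minus CDC was -0.77 ± 0.25 (95% interval -1.36 to -0.17, adjusted p = 0.116) and NK minus CDC -0.52 ± 0.25 (-1.11 to 0.08, adjusted p = 0.254).

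**Figure D2:**
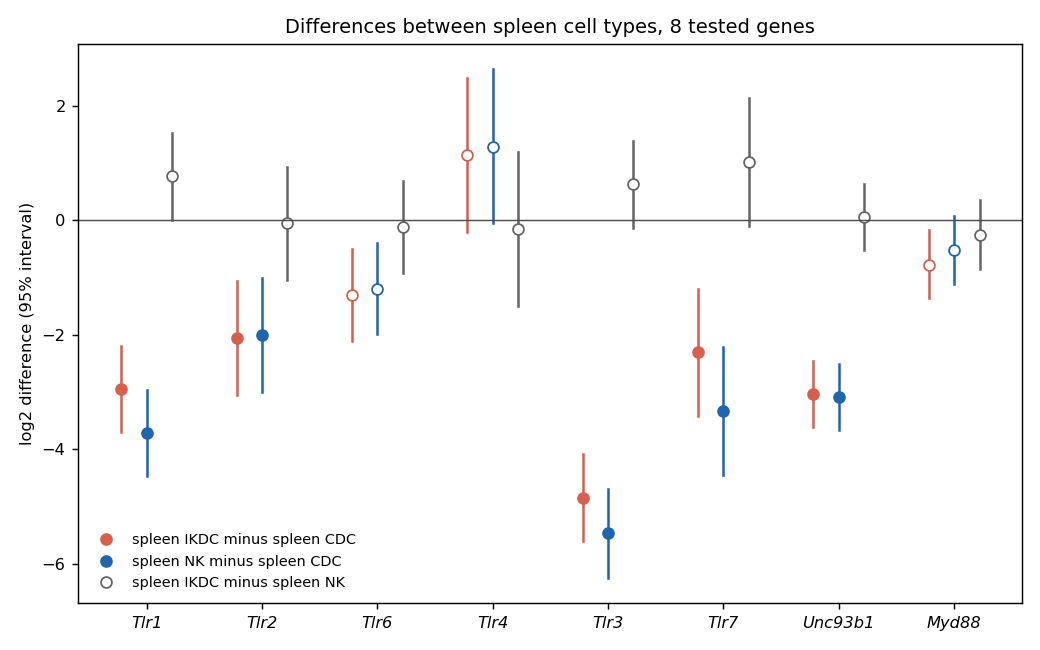
Differences between spleen cell types for the 8 tested genes (y axis, log2; points with 95% intervals from limma), with filled points where the adjusted p was under 0.05. Tlr1, Tlr2, Tlr3, Tlr7 and Unc93b1 lie below 0 against CDC in both IKDC and NK, and no grey point for IKDC minus NK is filled.

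Spleen IKDC and spleen NK were compared to see whether the receptors set them apart. None of the 8 genes was called, and neither was any of the 10916 genes tested (0%), the smallest adjusted p being 0.847. At an unadjusted p under 0.05 there were 598 genes, 1 of them listed here, Tlr1. Tlr1 was at 6.91 and 6.80 in IKDC against 6.42 and 5.76 in NK, a difference of 0.77 ± 0.31 (95% interval 0.01 to 1.52, adjusted p = 0.857). The intervals leave room for real differences: -0.52 to 0.64 for Unc93b1, -1.04 to 0.94 for Tlr2, -0.14 to 1.39 for Tlr3 and -0.09 to 2.14 for Tlr7. No gene at all was called without spleen NK array 1 either, so that fit cannot show whether the array masks a receptor difference. That array is also 1 of those behind the Tlr2 call between NK and CDC.

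In LN, where a group is a lone array whose spread is borrowed from spleen, the dendritic cell pattern held for Tlr3. Tlr3 was 37.8-fold lower in LN IKDC than in LN CDC (-5.24 ± 0.45, adjusted p = 0.01) and 29.9-fold lower in LN NK (-4.90 ± 0.45, adjusted p = 0.00643). Of the 8 genes, LN IKDC minus LN CDC called Tlr1 and Tlr3 lower and Tlr7 higher, where 3.98% of all genes tested were called (1.89% lower, 2.09% higher). LN NK minus LN CDC called Tlr2, Tlr3 and Unc93b1 lower, where 6.17% of all genes were called (3.23% lower, 2.93% higher). Tlr1 was 4.94-fold lower in LN IKDC (adjusted p = 0.0449), Tlr2 9.33-fold lower in LN NK (adjusted p = 0.0296) and Unc93b1 10.5-fold lower in LN NK (adjusted p = 0.00676). The LN calls of Tlr1 and Tlr2 were lost without spleen CDC 1, CDC 2, NK 1 or NK 2. Their highest adjusted p-values were then 0.113 and 0.0798.

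Tlr7 turned round in LN. LN CDC were at 4.15, below both spleen CDC arrays, and LN IKDC were at 7.85, within the range of spleen CDC. LN NK, at 4.68, were near background like spleen NK. Tlr7 was at least 5.83-fold higher in LN IKDC than in LN CDC (3.70 ± 0.65, adjusted p = 0.0355). That call was lost without spleen CDC 1, CDC 2, NK 1 or NK 2, with adjusted p-values of 0.0662, 0.0676, 0.0783 and 0.0778. The Tlr7 call was also lost with values as deposited, a percentile shift, no filter, the mean of all probe sets or a 2-fold minimum. It was kept with the other offsets and the other spread settings. The test of whether the IKDC minus CDC difference itself differed between organs gave 6.00 ± 0.80 (unadjusted p = 0.000207, adjusted p = 0.301), so it did not pass over all genes. Spleen IKDC, with a mean of 5.17, and LN CDC were under the background level, so its size is not exact. That test called 0% of genes, with 615 at an unadjusted p under 0.05.

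The levels on all 3 probe sets of Tlr7 ran the same way, although not every call held on each. The first is 1422010. The other 2, 1449640 and 1419848, read 6.88 and 6.83 on spleen CDC array 1, and 6.71 and 6.33 on array 2. On LN CDC they were at 4.61 and 4.60, and on LN IKDC at 6.90 and 6.50. No other array exceeded 5.17 on either. In spleen, IKDC minus CDC was not called by 1419848 (-2.08, adjusted p = 0.105), nor NK minus CDC by 1449640 (-2.02, adjusted p = 0.0754). The name of 1419848 ends in _x_at, a suffix for probes that may also bind related transcripts.

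LN CDC and LN IKDC were next set against their spleen counterparts, of which arrays 1 differ from them in the sex markers. LN CDC minus spleen CDC was -3.32 ± 0.57 for Tlr7 (adjusted p = 0.122). In that comparison 3 of 10916 genes (0.0275%) were called and none of the 8, although 4.9% of genes were over 2-fold below both spleen CDC arrays, as Tlr7 was. The mean of 6 markers of the cDC2 subset, the CD4 and SIRPA bearing CDC, was 8.55 on LN CDC and 9.59 and 10.20 on spleen CDC. The mean of 6 markers of the cDC1 subset, the cross-presenting CDC, was 9.81 on LN CDC and 8.60 and 8.74 on spleen CDC. Their part in the Tlr7 level was not tested.

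LN IKDC minus spleen IKDC was 2.68 ± 0.57 for Tlr7 (adjusted p = 0.256) and 1.67 ± 0.30 for Unc93b1 (adjusted p = 0.158). Limma called 0 of 10916 genes (0%) there, with 744 at an unadjusted p under 0.05. Against LN NK the differences were 3.17 ± 0.65 for Tlr7 (adjusted p = 0.33) and 2.15 ± 0.34 for Unc93b1 (adjusted p = 0.146), with 0.055% of genes called. Both genes were over 2-fold higher on the LN IKDC array than on all 5 other IKDC and NK arrays, as were 1.43% of all genes tested.

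The LN IKDC array also differed from the others in markers of plasmacytoid dendritic cells, which secrete type I interferon in response to viral nucleic acid. The 7 markers averaged 10.10 there, 6.70 and 6.90 in spleen IKDC, 6.06 to 6.49 in NK and 6.90 to 8.05 in CDC. Of the 7, 6 were highest on the LN IKDC array of all 9, and Klk1 was not. Siglech, a lectin of these cells, was at 10.78 there and at 4.79 to 6.51 on the other arrays. The transcription factor Spib was at 10.63 and the chemokine receptor Ccr9 at 11.78, where LN CDC were at 9.36 and 10.37. Tcf4 was at 11.53 and Bst2 at 9.42, where LN CDC were at 9.7 and 7.35. Flt3, a cytokine receptor of dendritic cells also singled out by its values, was at 8.69, against 5.75 and 6.13 in spleen IKDC. Blnk, on the list of B cell markers, was at 9.62, with the 7 B cell markers averaging 6.52 there and 4.78 to 6.02 elsewhere. NK markers averaged 11.35 on the same array. The part of these genes in the Tlr7 and Unc93b1 levels was not tested.

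**Figure D3:**
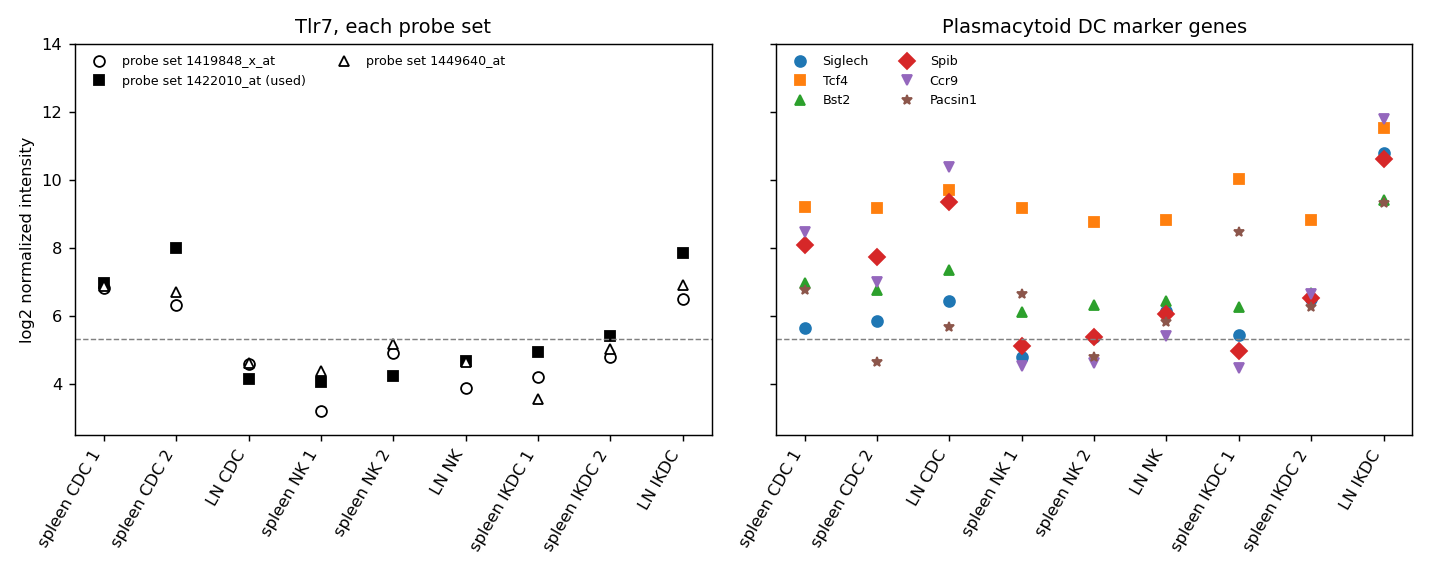
Levels (y axis, log2 normalized intensity) on each of the 9 arrays (x axis) for the 3 probe sets of Tlr7 (left) and 6 plasmacytoid dendritic cell markers (right); the dashed line marks 5.31. Tlr7 is high on spleen CDC 1, spleen CDC 2 and LN IKDC in every probe set, and Siglech is at 10.78 on LN IKDC alone.

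Promoter sequences are shown for Tlr1, Tlr2 and Tlr3, which were high in CDC together, and for Myd88, which varied least. They come from RefSeq on GRCm38.p6 and run from 250 bases before to 50 bases after a gene's start. Of the 10 genes, 7 were matched, with 9 windows, and Tlr4, Tlr7 and Unc93b1 were not. All 4 windows lie on the minus strand: chr5:64933509-64933808 for Tlr1, chr3:83841559-83841858 for Tlr2, chr8:45410331-45410630 for Tlr3 and chr9:119339969-119340268 for Myd88. Capitals mark matches, on either strand, to any of 6 motifs. Where matches of a motif overlap, they form 1 run.
Tlr1: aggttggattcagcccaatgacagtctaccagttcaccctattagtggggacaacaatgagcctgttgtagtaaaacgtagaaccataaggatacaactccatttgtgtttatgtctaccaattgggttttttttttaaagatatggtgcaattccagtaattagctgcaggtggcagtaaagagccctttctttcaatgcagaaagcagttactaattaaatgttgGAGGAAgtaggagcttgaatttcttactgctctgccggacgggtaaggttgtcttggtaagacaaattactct
Tlr2: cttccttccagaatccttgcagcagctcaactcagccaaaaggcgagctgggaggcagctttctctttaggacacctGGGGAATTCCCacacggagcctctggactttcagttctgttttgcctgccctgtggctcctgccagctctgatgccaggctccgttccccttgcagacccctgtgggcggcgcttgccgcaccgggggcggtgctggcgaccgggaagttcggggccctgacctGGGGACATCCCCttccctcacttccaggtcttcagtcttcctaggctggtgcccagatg
Tlr3: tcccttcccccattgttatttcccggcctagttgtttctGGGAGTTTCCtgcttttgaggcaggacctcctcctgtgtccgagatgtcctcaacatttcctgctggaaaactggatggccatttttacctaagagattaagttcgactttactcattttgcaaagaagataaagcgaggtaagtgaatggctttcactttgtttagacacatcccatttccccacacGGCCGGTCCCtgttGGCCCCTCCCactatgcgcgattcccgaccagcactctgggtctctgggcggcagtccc
Myd88: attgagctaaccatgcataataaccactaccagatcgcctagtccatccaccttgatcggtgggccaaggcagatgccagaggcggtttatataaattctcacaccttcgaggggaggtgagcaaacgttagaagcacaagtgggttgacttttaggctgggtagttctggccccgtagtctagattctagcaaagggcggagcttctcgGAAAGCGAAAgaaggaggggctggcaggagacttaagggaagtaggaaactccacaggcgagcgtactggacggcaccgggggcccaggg

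The NF-kB motif was GGG, 5 free bases and CC, which 50.8% of 32851 mouse promoter windows of this length held. GAGGAA, the core of PU.1 sites, was in 28.3%, TGTGGT for RUNX factors in 16.8% and TGANTCA for AP-1 in 7.81%. The interferon response element was GAAA, 2 free bases and GAAA (3.44%), and the joint ETS and IRF element, which it can overlap, was GGAA, 2 free bases and GAAA (2.72%). Tlr2 and Tlr3 had matches to the NF-kB motif, with 1 of the Tlr3 matches at -211 from the start. Tlr1 matched GAGGAA at -23, and Myd88 matched the interferon response element as GAAAGCGAAA at -40. Among the windows not shown, the second of Tlr1 held none of the motifs, 1 of Tlr6 held the interferon response element and the RUNX motif and the other the NF-kB motif, Tlr9 held GAGGAA and AP-1, and Tlr8 GAGGAA. The joint ETS and IRF element was found in none of the 9. A match describes letters only.

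The rest of the pathway was counted over lists of genes by role. The counts are to be read against the 10.3% and 13.5% of all genes called in IKDC and NK, and a list near those shares shows nothing about the list. Of the other receptors, 3 of 4 listed were on the array and tested, and none was called higher in IKDC or NK. Tlr13, a sensor of bacterial ribosomal RNA, was at 8.19 and 9.19 in spleen CDC, at 5.0 and 5.32 in NK and at 4.27 and 5.93 in IKDC. It was at least 10.4-fold lower in both (IKDC -3.59 ± 0.62, adjusted p = 0.0158, and NK -3.53 ± 0.62, adjusted p = 0.0134). Like Tlr7, it passed the filter only through the arrays where it was high, those of CDC. The IKDC call was lost without either CDC array and the NK call without CDC 2, NK 1 or NK 2, with adjusted p-values of up to 0.131 and 0.114. Tlr5, the flagellin receptor, was 3.27-fold lower in IKDC (adjusted p = 0.0307), a call kept only without IKDC 2, and 2.04-fold lower in NK (adjusted p = 0.124). Its adjusted p in IKDC reached 0.222. Tlr12, a receptor of protozoan profilin, was at 4.82 to 6.23 on the 9 arrays, with an IKDC minus CDC difference of -0.49 (adjusted p = 0.6).

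Among co-receptors and accessory proteins, 3 of 6 tested were lower in IKDC and 2 in NK, and none was higher. Ly86, which holds the TLR-like receptor CD180 at the surface, was at 11.71 and 11.64 in spleen CDC. It was 12.1-fold lower in IKDC, at 8.47 and 7.70, and 35.2-fold lower in NK, at 6.66 and 6.41. Those calls held without any of the 6 spleen arrays. Cd180 itself was 4.84-fold lower in IKDC (adjusted p = 0.0113) and 4.13-fold lower in NK (adjusted p = 0.0134). Its calls were lost without CDC 1 in IKDC, and without CDC 1, CDC 2 or NK 1 in NK, with adjusted p-values of up to 0.0881 and 0.0982. Clec7a, the receptor of fungal beta-glucan, was 9.63-fold lower in IKDC (adjusted p = 0.0427), which was lost without CDC 1, CDC 2 or IKDC 1. Its adjusted p then reached 0.254.

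On the LN IKDC array Ly86 was at 11.19 and Cd180 at 8.17, and LN CDC were at 11.28 and 8.07. Neither was called between LN IKDC and spleen IKDC, where no gene was. Each was over 2-fold above all 5 other IKDC and NK arrays. Ly86 was 1 of 6 genes called between LN IKDC and LN NK, where LN NK were at 6.02. Without CDC 1, CDC 2, NK 1 or NK 2 that comparison called 0 genes.

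Of 12 tested genes for folding, transport and cleavage of the receptors, the same 3 were lower in IKDC and in NK. Cnpy3, a chaperone for receptor folding, was 3.34-fold lower in IKDC (adjusted p = 0.0158) and 3.33-fold lower in NK (adjusted p = 0.0131). Slc15a4, an endosomal transporter needed for TLR7 and TLR9 signalling, was 4.18-fold and 4.68-fold lower (adjusted p = 0.00684 and 0.00426). Ctss, an endosomal protease, was 2.95-fold and 3.85-fold lower (adjusted p = 0.00457 and 0.00159). Without CDC 2 the IKDC calls of all 3 and the NK calls of Cnpy3 and Slc15a4 were lost. Cnpy3 was also lost without CDC 1 in both and without NK 1 or NK 2 in NK. The highest adjusted p-values were 0.137, 0.0769 and 0.0558 in IKDC, and 0.114 and 0.0514 in NK. Slc15a4 was at 9.75 and 10.11 in spleen CDC, 8.11 in LN CDC, 7.26 in LN NK and 9.02 in LN IKDC, and it was not called between LN IKDC and LN CDC. Ctsl, another protease, singled out after its values were seen, was at 11.52 in LN IKDC and at 7.13 to 9.21 elsewhere.

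Most signalling genes did not pass. Of 16 tested adaptors and kinases, 1 was higher and 1 lower in each comparison, a share near that of all genes. Ikbke, a kinase upstream of interferon regulatory factors, was at 3.07 and 3.4 in spleen CDC and at 7.48 to 8.27 in spleen NK and IKDC. It was at least 5.73-fold higher in IKDC (adjusted p = 0.00137) and at least 5.93-fold higher in NK (adjusted p = 0.000897). Ikbke passed the filter only through the arrays where it was high, those of NK and IKDC. Btk, a kinase of B cells and myeloid cells, was 7.53-fold lower in IKDC (adjusted p = 0.025) and at least 12.8-fold lower in NK (adjusted p = 0.00748). The Btk calls were lost without either CDC array, and in IKDC also without IKDC 1, with adjusted p-values of up to 0.174 and 0.0737. Ticam1, the adaptor of TLR3, differed by -0.37 ± 0.30 in IKDC (adjusted p = 0.542) and 0.01 ± 0.30 in NK (adjusted p = 0.993).

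Of 12 tested transcription factors, Spi1 and Irf5 were lower in both. Spi1, which encodes the myeloid factor PU.1, was at 10.26 and 10.28 in spleen CDC, 10.37 in LN CDC and 5.78 to 6.75 on all others. It was 20.6-fold lower in IKDC (adjusted p = 0.00129) and 15.9-fold lower in NK (adjusted p = 0.000736). Irf5, which acts downstream of MYD88, was 7.11-fold lower in IKDC (adjusted p = 0.00206) and 10.4-fold lower in NK (adjusted p = 0.000897). These 4 calls held without any of the 6 spleen arrays. In NK, Relb was also lower (4.33-fold, adjusted p = 0.0238) and Irf1 higher (2.74-fold, adjusted p = 0.0241). Relb was lost without CDC 1, CDC 2, NK 1 or NK 2, and Irf1 without CDC 1, NK 1 or NK 2, with adjusted p-values of up to 0.169 and 0.14. Irf7 and Irf8, interferon regulators, differed in IKDC by -0.72 ± 0.32 (adjusted p = 0.243) and -0.54 ± 0.23 (adjusted p = 0.213).

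Of 12 tested inhibitors of the pathway, 3 were higher and 1 lower in IKDC, and 4 were higher and 1 lower in NK. Nlrc3, a negative regulator of TLR signals, was at least 12.4-fold higher in IKDC and at least 17.7-fold higher in NK. Like Ikbke, it passed the filter only through the NK and IKDC arrays. Tnfaip3, which encodes the ubiquitin-editing enzyme A20, was 2.52-fold and 2.83-fold higher. Atf3, a repressor induced by stress and TLR signals, was 11.8-fold and 6.14-fold lower. Its level was 12.08 and 11.93 in spleen CDC but 7.85 in LN CDC, 5.11 in LN NK and 4.61 in LN IKDC. Lgals9, encoding galectin 9, was 2.20-fold higher in IKDC (adjusted p = 0.0449) and 3.70-fold higher in NK (adjusted p = 0.00576), and Otud7b, a deubiquitinase, was 3.49-fold higher in NK (adjusted p = 0.0121). Nlrc3 and Atf3 kept both calls without any spleen array, and Tnfaip3 kept that in NK. Tnfaip3 in IKDC was lost without either CDC array (up to 0.0773). Lgals9 in IKDC was lost without all but IKDC 1 (up to 0.277) and in NK without CDC 2 or NK 1 (up to 0.0616). Otud7b was lost without CDC 1, CDC 2, NK 1 or NK 2 (up to 0.106).

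Of 6 tested cytokines and chemokines that TLR signals induce, the chemokine genes Ccl3, Ccl4 and Ccl5 were higher in both IKDC and NK, and Il1b was lower. Il1b, which encodes interleukin 1 beta, was at 11.10 and 11.68 in spleen CDC, 9.88 in LN CDC and 5.64 to 6.56 on all others. It was 37.2-fold lower in NK (adjusted p = 0.00058). Ccl4 was 11-fold higher in IKDC and 17.4-fold higher in NK, Ccl3 6.59-fold and 8.86-fold, and Ccl5 3.70-fold and 3.87-fold. All of these calls held without any of the 6 spleen arrays. The chemokines are also known products of NK. Il6, Il10, Il12a, Il12b, Il23a and Ifnb1 were too low to test.

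Of 11 tested cytosolic sensors of nucleic acid and bacterial proteins, 4 were lower in IKDC and 3 in NK. Ifih1, a sensor of long double-stranded RNA, was 2.69-fold lower in IKDC (adjusted p = 0.0357) and 2.89-fold lower in NK (adjusted p = 0.0226). Dhx58 was 2.80-fold and 2.61-fold lower, and Naip5, a flagellin sensor, 3.12-fold and 3.01-fold lower. Nlrp3, which forms an inflammasome, was 3.95-fold lower in IKDC (adjusted p = 0.0392). None of the IKDC calls was kept in more than 1 of the 6 fits that left out a spleen array, and none of the NK calls in more than 2. The highest adjusted p-values were 0.241 for Ifih1, 0.283 for Dhx58, 0.27 for Naip5 and 0.203 for Nlrp3 in IKDC. In NK they were 0.169 for Ifih1, 0.28 for Dhx58 and 0.242 for Naip5.

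Of 5 tested genes of the interleukin 1 receptor family, whose signalling receptors also use MYD88, 2 were higher and 1 lower in IKDC, and 3 were higher and 1 lower in NK. Il18r1, the binding chain of the interleukin 18 receptor, was at 6.16 and 4.91 in spleen CDC, 11.81 and 12.22 in NK, and 10.32 and 11.78 in IKDC. It was 45.8-fold higher in IKDC (5.52 ± 0.58, adjusted p = 0.0029) and 89.4-fold higher in NK (6.48 ± 0.58, adjusted p = 0.00125). Il18rap, the second chain, was 23.8-fold higher in IKDC (adjusted p = 0.00148) and 39.7-fold higher in NK (adjusted p = 0.000736). Both chains stayed called without any of the 6 spleen arrays. In LN they were at 7.64 and 7.03 in CDC, 12.60 and 11.69 in NK, and 12.26 and 11.18 in IKDC. Il1rap, the shared chain of the interleukin 1 receptors, was higher in NK (2.64-fold, adjusted p = 0.0222), and Il1r2, a decoy receptor, was at least 12-fold lower in IKDC (adjusted p = 0.0455) and NK (adjusted p = 0.0411). The last 3 calls were lost without CDC 1, CDC 2, NK 1 or NK 2, and Il1r2 in IKDC also without IKDC 2. Their highest adjusted p-values were 0.165, 0.227 and 0.225. Il1r2 passed the filter only through the arrays where it was high, those of CDC. No list had a gene called between spleen IKDC and spleen NK.

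**Figure D4:**
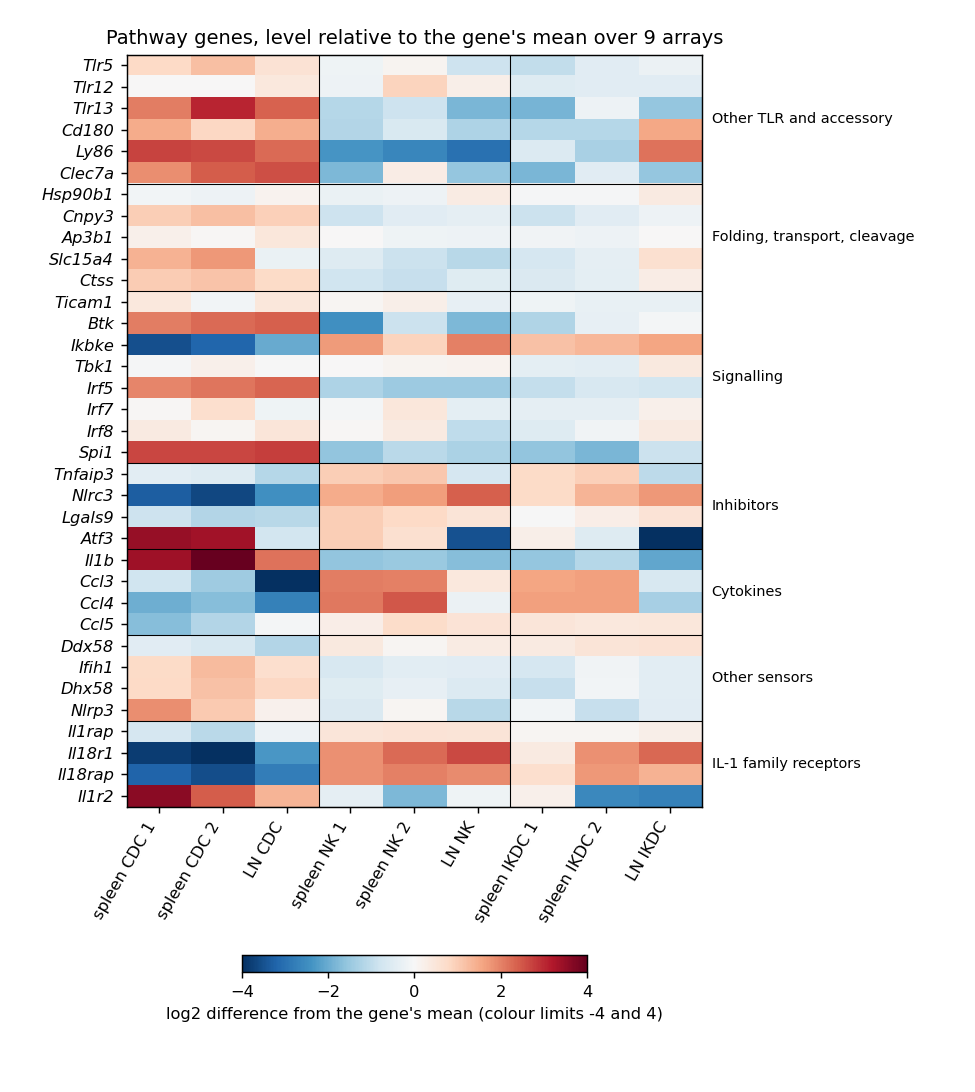
Level of pathway genes on each array relative to that gene's mean over the 9 arrays (colour, log2, limits -4 and 4), with genes as rows grouped by role and arrays as columns; the rows were chosen after the values were seen. Spi1, Irf5, Il1b and Ly86 are red on CDC arrays, Ikbke, Nlrc3, Il18r1 and Il18rap are blue there, and Ly86 and Cd180 are also red on LN IKDC.

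Patterns over the 9 arrays were compared by Pearson correlation, given as a description because the points share arrays and fall into cell types. Among the 8 genes, Tlr1 and Tlr3 correlated at 0.925, Tlr2 and Tlr3 at 0.921, and Unc93b1 with both Tlr2 and Tlr3 at 0.914. Tlr7 stood apart from these, with 0.373 to Tlr3 and 0.601 to Unc93b1. Tlr4 was negative with all 7 others, between -0.645 and -0.369.

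The 3 tested genes most like each were as follows. Tlr3 was closest to Icosl (0.993), a ligand of the T cell costimulator ICOS, Kcnk6 (0.992) and Snx22 (0.992). Unc93b1 was closest to Flt3 (0.991), Slc16a13 (0.987) and the aspartic protease gene Napsa (0.987). Tlr1 was closest to Lipo3 (0.986), Morn2 (0.969) and Stap1 (0.969), and Tlr2 to Stom (0.984), the formyl peptide receptor gene Fpr2 (0.984) and Ptcd2 (0.981). For Tlr7 the closest were Brd7 (0.949), Eepd1 (0.938) and Serp1 (0.927), and for Tlr6 N4bp2l1 (0.973), Rgl1 (0.971) and Pygo2 (0.938). For Tlr4 they were Ctse (0.954), Lsm14b (0.953) and Ezh1 (0.949), and for Myd88 Cd300ld (0.96), Rgl2 (0.947) and Herpud1 (0.93).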

How the data were processed

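Per the labels' protocols, TRIzol and RNeasy columns gave the RNA, 6 µg of which went into biotin-labelled cRNA. The deposited values are linear intensity per probe set, scaled by the authors to the same trimmed mean on every array; software: not given in the sources used here. There were 45101 probe sets, of which 64 controls, 932 with several symbols and 9160 with none were left out. An offset of 6.5 was added, log2 taken and arrays quantile normalized. For each gene the brightest probe set by mean was kept, and genes under the 40th percentile were not tested. Tests used limma 3.58.1 in R 4.3.3 over 6 groups, eBayes with a trend, and two-sided p-values adjusted by Benjamini and Hochberg within each comparison. The spread had 3 residual and 3.44 prior degrees of freedom, and the number of arrays limits the precision. Scripts were tested on simulated data.

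The 10 genes, the gene lists and the motifs were chosen with earlier results of these data known. Named in each list were at most 5 called genes per spleen comparison with the largest difference, and fixed genes whether called or not; likeness took the 3 highest correlations. Alternatives were the values as deposited, a 75th percentile shift, other offsets, filters, probe set summaries and spread settings, a 2-fold minimum, an additive model, spleen arrays alone, the replicate number as a block and leaving out each spleen array.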

Additional observations from a re-analysis of the deposited data

Results flagged for a closer look

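Some cell type differences pointed one way on every spleen array pair and the other way in LN, and each was tested as the difference between organs in limma over 10916 genes. None passed, and each rests on lone LN arrays. Tlr7 differed most. Its IKDC minus CDC difference was -3.06 to -1.54 in spleen and 3.70 in LN, a change of 6.00 between organs (adjusted p = 0.301). Spleen IKDC (mean 5.17) and LN CDC (4.15) were under the background level of 5.31, so this change is not an exact size. The NK minus CDC difference of Tlr7 was -3.93 to -2.72 in spleen and 0.53 in LN, a change of 3.86 (adjusted p = 0.613). Both NK groups and LN CDC were under the background level, so the sign in LN has no meaning. For Myd88 the changes were smaller: 1.02 for IKDC minus CDC (adjusted p = 0.884) and 0.54 for NK minus CDC (adjusted p = 0.998). Its differences in LN were 0.26 ± 0.35 and 0.02 ± 0.35, within their standard errors, so their sign has no meaning. For IKDC minus NK, Tlr1 was 0.38 to 1.15 in spleen and -1.07 in LN, a change of -1.84 (adjusted p = 1). Tlr3 was 0.22 to 1.03 in spleen and -0.34 in LN, a change of -0.96 (adjusted p = 1), where Tlr3 levels lay between 4.62 and 5.89, near background.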

How the results depend on the processing

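Of the counts of called genes among the 8 tested, over all comparisons and alternatives, 198 stayed within 1.5 times of the reported count and 15 moved. A count of 0 that stayed at 0 is among the 198. Most comparisons called none of the 8, so the 198 says little about how stable the calls are. In spleen, Tlr1, Tlr3 and Unc93b1 kept their calls against CDC under every alternative run. The spleen IKDC minus CDC count of 5 was 3 with a filter at the 60th percentile, which leaves only 5 of the genes tested, and 3 with a 2-fold minimum; leaving out each spleen array gave 3 to 6. The spleen NK minus CDC count of 5 was 3 with the 60th percentile filter and 3 to 6 leaving out arrays. The LN IKDC minus CDC count of 3 was 1 as deposited, 1 with no filter and 1 with a 2-fold minimum, and 1 to 4 leaving out arrays. The cause of these moves was not tested. For Tlr7 in the additive model, which pools organs, spleen IKDC minus CDC was -0.30 (adjusted p = 0.879).

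Arrays of the same number deviated alike (r across genes was 0.412 between CDC and NK, 0.529 between CDC and IKDC and 0.485 between NK and IKDC), but no label ties a number to a shared animal or day. The numbers do differ in the sex markers Xist and Eif2s3y. With the number as a replicate block, over spleen arrays alone, 6 genes were called in both CDC comparisons, Tlr6 being added (adjusted p = 0.0335 in IKDC and 0.0396 in NK), with 17.4% and 21.1% of all genes called, and 0 between IKDC and NK.

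Differences between spleen IKDC and NK, none of them called, changed sign in 8 fits: Tlr2 to 0.01 as deposited, 0.23 in the additive model and 0.50 without spleen IKDC array 1 (-0.59 without array 2); Tlr4 to 0.60 and Tlr6 to 0.27 without array 1 (-0.89 and -0.49 without array 2); Tlr4 to 0.10 by probe set 1418163_at and Tlr7 to -0.48 by 1449640_at; and Unc93b1 to -0.08 without spleen NK array 2 (0.20 without array 1). Over all genes, the 1129 called between spleen IKDC and CDC became 1904 with the replicate block, 1897 in the additive model, 401 with a 2-fold minimum, and 465 and 360 without CDC arrays 1 and 2. The 1476 called between spleen NK and CDC became 2304, 2404 and 539, and 730, 515, 677 and 669 without CDC 1, CDC 2, NK 1 and NK 2. In LN the 434 between IKDC and CDC became 260 with no filter, 60 with a 2-fold minimum, 123 to 159 without a spleen CDC or NK array, and 732 and 719 without IKDC 1 and 2; the 673 between NK and CDC became 254 with a 2-fold minimum, 328 to 389 without a spleen CDC or NK array, and 1078 and 1058 without IKDC 1 and 2. Counts near 0 also moved: the 3 between LN and spleen CDC ranged from 0 to 19 over the alternatives, the 6 between LN IKDC and LN NK from 0 to 33, and the 0 between LN and spleen IKDC from 0 to 46.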
